A study of Mus musculus with 14 samples.

Results

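The genes of glycolysis and of the hypoxia response were followed in mouse embryonic stem (ES) cells entering mTORi-induced dormancy. The set was a list of 35 gene symbols chosen by name: the glucose transporters and glycolytic enzymes, the genes for lactate production and export, the transcription factor *Hif1a*, the prolyl hydroxylases *Egln1* and *Egln3*, and a group of known HIF targets. The symbols matched 36 of the 54446 gene identifiers shared by the libraries, since *Aldoa* is listed under 2 identifiers. Of these, 35 passed the filter for testing, a mean of at least 1 TPM over all libraries, and *Adm* did not. The libraries were total RNA from E14 mouse ES cells, grown in serum and LIF without feeders and left untreated (0 h) or with the mTOR inhibitor Ink128, called mTORi here. Wild-type cells were sampled at 0, 24, 72 and 144 h and *Tet1/2* DKO cells, in which both *Tet1* and *Tet2* were disrupted with Cas9, at 0, 24 and 72 h, with 2 libraries in each of the 7 groups and 14 in all. Viable single cells were sorted before RNA was taken. The DKO cells came from single sorted cells of the same E14 line, so differences between clones and differences of genotype cannot be told apart.

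Glycolysis splits glucose into pyruvate. Glucose enters through SLC2A transporters, is trapped by hexokinase, is committed to breakdown by phosphofructokinase, and leaves the pathway as pyruvate made by pyruvate kinase. Lactate dehydrogenase then converts pyruvate to lactate, which monocarboxylate transporters carry out of the cell. Pyruvate can instead enter the mitochondria, where pyruvate dehydrogenase uses it. HIF1A is a transcription factor whose protein is marked for destruction by prolyl hydroxylases when oxygen is present, so the level of its mRNA need not follow the level of its protein. Many glycolytic genes are among its targets, and mTORC1 is known to promote both HIF1A translation and glycolytic gene expression. ES cells are known for high glycolytic flux.

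Promoter sequences are shown for the 3 genes with the largest falls at 24 h in wild-type cells (*Ldha*, *Tpi1* and *Slc16a3*) and for *Ldhb* and *Pdk1*, which were called higher on plain TPM. Each runs 5′ to 3′ and ends at or shortly before a RefSeq start site, with bases that an annotated exon covers left out. Capitals mark ACGTG or GCGTG, the core letters of hypoxia response elements, on either strand. Where ACGTG is read on both strands at one place it spells CACGTG, the E-box, so these matches overlap.
Ldha (GRCm38.p6 chr7:46845554-46845803, plus strand): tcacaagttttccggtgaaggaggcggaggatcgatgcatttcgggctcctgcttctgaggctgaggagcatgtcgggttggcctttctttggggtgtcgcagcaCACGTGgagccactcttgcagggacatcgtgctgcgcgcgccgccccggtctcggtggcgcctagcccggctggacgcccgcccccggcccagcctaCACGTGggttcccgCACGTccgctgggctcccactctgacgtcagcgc
Tpi1 (GRCm38.p6 chr6:124814297-124814408, minus strand): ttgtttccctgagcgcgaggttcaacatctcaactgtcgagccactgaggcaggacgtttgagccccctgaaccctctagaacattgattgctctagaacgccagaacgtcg
Slc16a3 (GRCm38.p6 chr11:120948817-120949052, plus strand): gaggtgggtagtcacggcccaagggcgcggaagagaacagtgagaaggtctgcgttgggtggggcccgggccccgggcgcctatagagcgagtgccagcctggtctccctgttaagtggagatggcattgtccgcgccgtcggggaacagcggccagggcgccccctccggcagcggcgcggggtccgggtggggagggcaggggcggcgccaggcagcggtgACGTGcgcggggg
Ldhb (GRCm38.p6 chr6:142507958-142508207, minus strand): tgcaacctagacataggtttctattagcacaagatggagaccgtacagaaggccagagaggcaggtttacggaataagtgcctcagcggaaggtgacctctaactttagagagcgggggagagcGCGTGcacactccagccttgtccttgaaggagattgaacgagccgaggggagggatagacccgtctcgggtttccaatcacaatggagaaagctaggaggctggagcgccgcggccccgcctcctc
Pdk1 (GRCm38.p6 chr2:71872974-71873223, plus strand): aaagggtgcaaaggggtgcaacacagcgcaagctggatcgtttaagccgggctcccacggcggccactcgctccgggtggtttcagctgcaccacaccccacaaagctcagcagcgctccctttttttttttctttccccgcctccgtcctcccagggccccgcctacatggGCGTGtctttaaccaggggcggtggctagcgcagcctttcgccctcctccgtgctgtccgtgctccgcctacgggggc
The *Ldha* promoter held CACGTG at 2 places and a further ACGTG on the other strand. The *Tpi1* stretch of 112 bases held no match and the *Slc16a3* stretch held 1. The *Ldhb* and *Pdk1* promoters held 1 match each. RefSeq windows of 300 bases, 250 before to 50 after a start, were found for 33 of the 35 symbols, with 47 windows in all. At least 1 of the 2 cores lay in 80.9% of these windows and in 43.8% of all 32851 windows. ACGTG alone was in 53.2% against 19.6%, GCGTG alone in 59.6% against 32.4%, and CACGTG in 12.8% against 7.15%. These are matches of letters, not measured binding sites. The set was chosen by name and includes known HIF targets, so the contrast with all windows is no independent test. Windows were not matched for base content, and several windows of a gene were counted separately.

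Levels are given on a pair of scales. Plain TPM, a measure per transcript length, is the share a gene takes of all RNA measured in its library. Spike-in normalized TPM multiplies each library by 1 factor, from 1 to 2.81, taken from the study's own table, so that levels are relative to the added ERCC RNA. It is the main scale, as in the study. The step at which the ERCC RNA was added is not given in the sources used here, and in bulk samples fewer cells of a type and less RNA per cell cannot be told apart. The factors were 2.11 in both untreated wild-type libraries and 1.07 and 1 after 144 h, and the median log2 change of all 18232 genes tested was -0.33 after 24 h, -0.33 after 72 h and -0.83 after 144 h. The read depth is unknown, since the files hold TPM and no counts, and 28306 to 29927 genes were above 0 in each library. The ES cell markers *Pou5f1*, Sox2, Nanog, Zfp42 and Esrrb summed to 2016 to 2629 plain TPM in every library, and 6 fibroblast feeder markers to 0.711 at most. Single ES cell markers moved in both directions within that sum. From 0 to 144 h in wild-type libraries Nanog went from 322 and 344 to 207 and 230, and Sox2 from 231 and 248 to 369 and 380. In DKO libraries Nanog went from 259 and 292 to 187 and 125 at 72 h. The sums were 5.90 to 54.3 for trophectoderm (mostly *Tfap2c*), 3.71 to 8.31 for mesendoderm and 2.30 to 9.86 for neuroectoderm markers. *Tet2* was at 96 to 143 plain TPM in the wild-type libraries and at 15.9 to 22.2 in the DKO libraries. *Tet1* was at 191 to 349 and at 147 to 248, so its transcript level does not check the label. Genes were tested with limma on log2(TPM + 1), with p-values adjusted (Benjamini-Hochberg) over all genes tested and a call at an adjusted p under 0.05. Changes are differences of log2(TPM + 1), which understate the change of low genes. With 2 libraries a group the p-values measure the spread between replicates, and an exact permutation test of any single pair of groups could not go below p = 0.333.

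After 24 h of mTORi, wild-type cells held less mRNA for the phosphofructokinases *Pfkl* and *Pfkp*, for most enzymes from aldolase to lactate dehydrogenase and for both lactate exporters. On the spike-in scale 17 of the 35 tested members fell, against 8.73% of all genes, and none rose, against 1.25%. The median change of the members was -0.86, with -0.33 for all genes. The 17 were *Ldha*, *Slc16a3*, *Tpi1*, *Pgk1*, *Pkm*, *Pgam1*, *Aldoa*, *Slc16a1*, *Aldoc*, *Eno1*, *Eno3*, *Slc2a1*, *Ankrd37*, *Pfkl*, *Egln3*, *Bnip3* and *Pfkp*, in order of the size of the fall. On plain TPM 19 fell (14.1% of all genes) and 3 rose (15.8%): *Ldhb*, *P4ha1* and *P4ha2*. The replicate numbers were taken to pair libraries within a genotype, from the study's statement on parallel processing and from correlations of replicate deviations. With the number as a block, *Hk2*, *Gpi1*, *Pfkm*, *Gapdh* and *Vegfa* were called lower in addition, giving 22 against 25.7% of all genes, and *P4ha2* was called higher (4.48% of all genes called higher). Of the 17 falls, 10 kept their call whichever single library was left out, and those of *Aldoc*, *Pfkl*, *Pfkp*, *Slc2a1*, *Egln3*, *Ankrd37* and *Bnip3* did not, with adjusted p up to 0.29 for *Bnip3*. The count was 10 without wild-type 0 h replicate 2 or without 24 h replicate 1. Primitive endoderm markers moved with these 24 h changes: their summed plain TPM was 8.47 and 21.7 in untreated wild-type libraries and 66.1 and 116 after 24 h, while the ES cell markers stood at 2383 and 2349 and 2629 and 2524. The part of these cells in the members' changes was not tested.

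**Figure D1:**
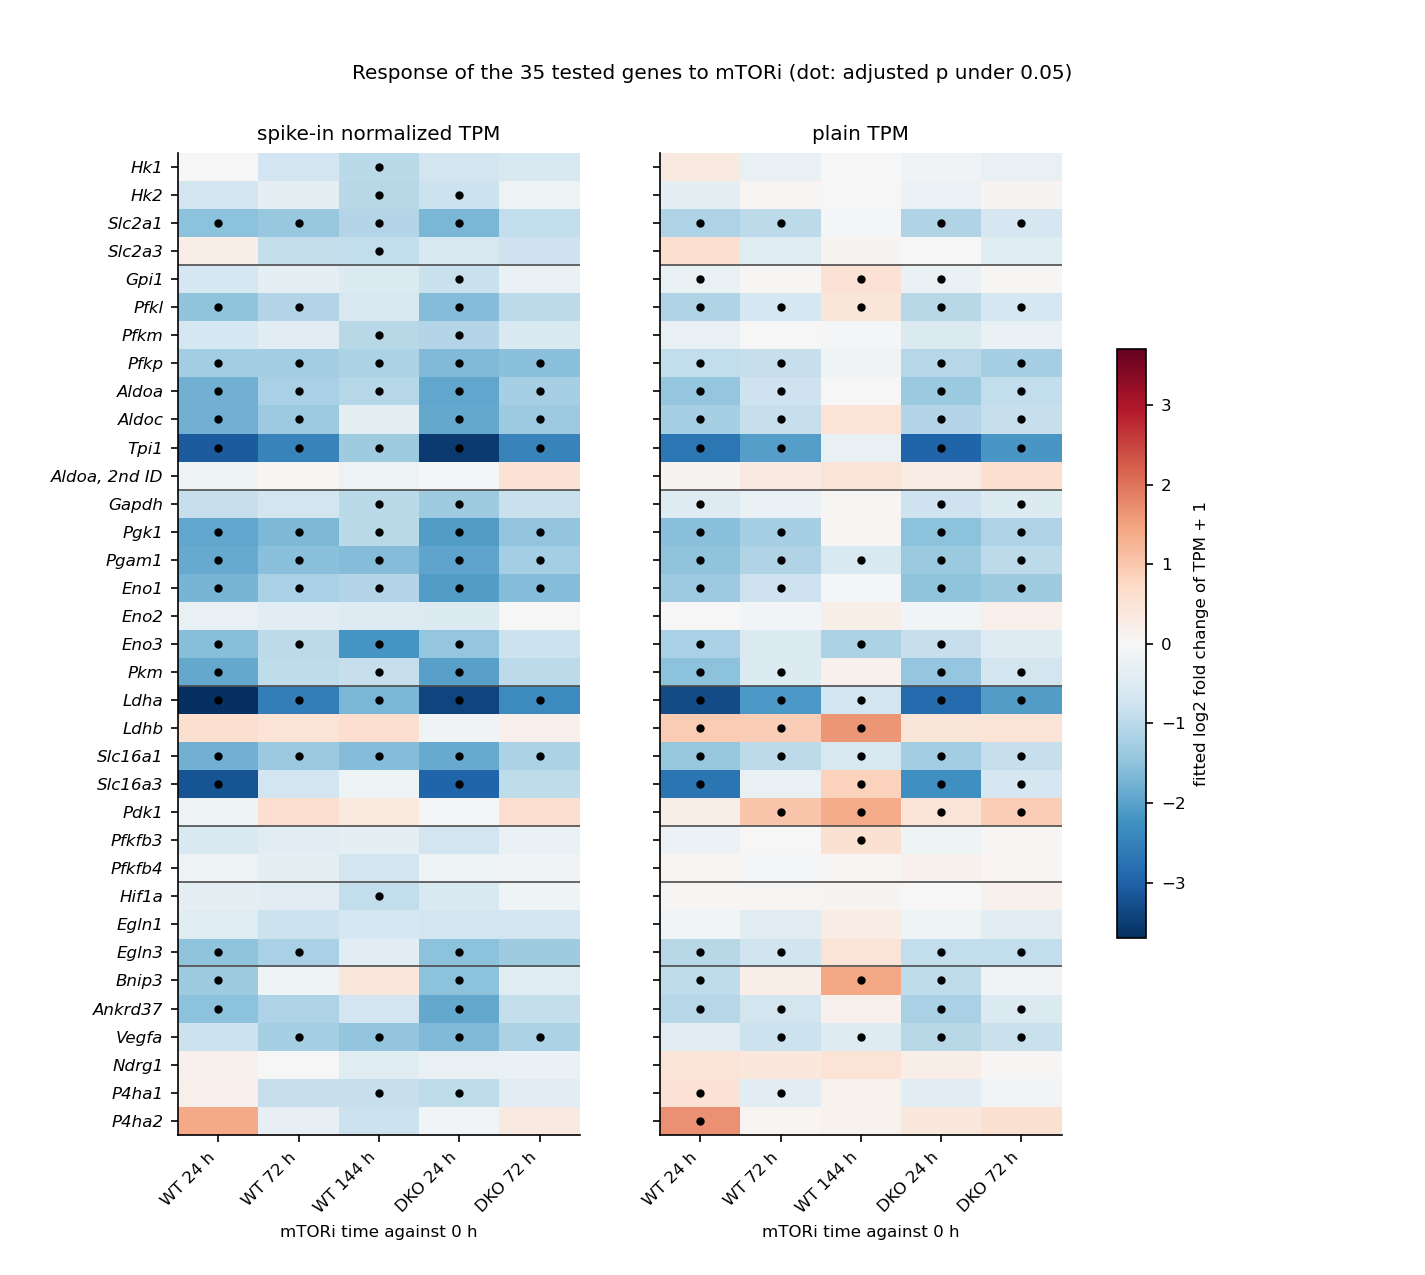
Fitted log2 fold change of TPM + 1 against 0 h for each of the 35 tested genes (rows, grouped by role from glucose entry at the top to HIF targets at the bottom) at each mTORi time (columns), on spike-in normalized TPM (left) and plain TPM (right); a dot marks an adjusted p under 0.05. At 24 h *Ldha*, *Slc16a3* and *Tpi1* had the deepest falls in both genotypes, and the plain TPM column of 144 h in wild-type cells held 7 genes called higher and 5 called lower.

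Glucose entry was split between its isoforms. *Slc2a1* encodes GLUT1, the widespread glucose transporter, and its spike-in normalized TPM in the wild-type libraries was 276 and 323 before treatment, 90.6 and 117 after 24 h, 119.8 and 107 after 72 h and 144 and 135 after 144 h. In DKO libraries it was 400.5 and 297 before treatment, 137 and 82.0 after 24 h and 221 and 149 after 72 h. Every treated library lay below every untreated library of its genotype, and *Slc2a1* fell by 1.53 (adjusted p = 0.0031) at 24 h and fell by 1.09 (adjusted p = 0.0059) at 144 h in wild-type cells and fell by 1.69 (adjusted p = 9.7e-04) at 24 h in DKO cells, with an SE of 0.29. On plain TPM its wild-type libraries overlapped at 144 h, with 130.5 and 152.9 before treatment and 134.5 and 135.5 after 144 h. *Slc2a3* encodes GLUT3, the high-affinity transporter, and stood at 455 and 489 before treatment, 436 and 726 after 24 h, 217 and 305 after 72 h and 249 and 251 after 144 h in wild-type libraries. In DKO libraries it stood at 686 and 529.7 before treatment, 568 and 279.6 after 24 h and 531 and 236 after 72 h. The wild-type libraries of 0 and 24 h overlapped on this scale, and without the replicate block *Slc2a3* was called among the changes from 0 h only in wild-type cells at 144 h, where it fell by 0.92 (adjusted p = 0.044). On plain TPM that change was 0.11 (adjusted p = 0.76). With the block it was also called lower at 72 h in wild-type cells (adjusted p = 0.01) and DKO cells (adjusted p = 0.029). On plain TPM the wild-type libraries were at 216 and 232 before treatment and 304 and 392 after 24 h, which do not overlap, and with the block *Slc2a3* rose by 0.62 (adjusted p = 0.0094).

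The hexokinases trap glucose as glucose 6-phosphate. *Hk2*, the inducible form, stood at 333 and 323 before treatment, 196 and 209.5 after 24 h, 295 and 222 after 72 h and 174 and 150.3 after 144 h in wild-type libraries and at 438 and 407 before treatment, 261 and 229 after 24 h and 409.8 and 329 after 72 h in DKO libraries on the spike-in scale. It fell by 1.02 (adjusted p = 0.0034) at 144 h in wild-type cells and fell by 0.78 (adjusted p = 0.033) at 24 h in DKO cells, both with an SE of 0.25. All treated wild-type libraries lay below the untreated ones, and in DKO cells those of 72 h overlapped them. On plain TPM all its libraries lay between 113 and 190.3, and among the changes from 0 h the one called was at 24 h in wild-type cells with the block, where it fell by 0.32 (adjusted p = 0.036). *Hk1* was the lower isoform, at 14.9 to 41.9 in wild-type libraries, and fell by 1.01 (adjusted p = 0.014) at 144 h, with no other call on the spike-in scale without the block. On plain TPM its wild-type mean at 144 h was 96.2% of that at 0 h, with no call. With the block on the spike-in scale *Hk1* was also called lower at 72 h in wild-type cells (adjusted p = 0.033) and at 24 h in DKO cells (adjusted p = 0.029).

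Of the upper pathway, *Pfkp* and *Pfkl* fell at 24 h in both genotypes. *Gpi1*, which makes fructose 6-phosphate, had a difference of -0.65 (adjusted p = 0.14) at 24 h in wild-type cells and fell by 0.82 (adjusted p = 0.049) in DKO cells. That fall was called in 3 of the 14 fits that left out 1 library, with changes from -1.21 without DKO 24 h replicate 1 to -0.43 without replicate 2 (adjusted p = 0.41). *Pfkp*, the platelet-type phosphofructokinase, stood at 245 and 230.4 before treatment, 91.2 and 103 after 24 h, 113 and 84.2 after 72 h and 111 and 101 after 144 h in wild-type libraries. In DKO libraries it stood at 256 and 283 before treatment, 95 and 79.0 after 24 h and 107 and 78.2 after 72 h. Treated and untreated libraries did not overlap in either genotype, and *Pfkp* was called lower at every time. It fell by 1.29 (adjusted p = 0.0047) at 24 h and fell by 1.16 (adjusted p = 0.002) at 144 h in wild-type cells and fell by 1.55 (adjusted p = 0.0023) at 72 h in DKO cells. These calls are on the spike-in scale. On plain TPM the wild-type mean of *Pfkp* at 144 h was 90.6% of that at 0 h, and no change was called there. *Pfkl*, the liver-type enzyme, stood at 177 and 192 before treatment, 57.5 and 73.8 after 24 h, 100.3 and 75.8 after 72 h and 137 and 110.1 after 144 h, and at 228 and 173 before treatment, 81.5 and 50.9 after 24 h and 114 and 89.7 after 72 h in DKO libraries. It fell by 1.49 (adjusted p = 0.0035) at 24 h and its change at 144 h was -0.59 (adjusted p = 0.096), while on plain TPM it rose by 0.44 (adjusted p = 0.019) over 0 h at 144 h. *Pfkm*, the muscle-type enzyme, passed the test on the spike-in scale at 144 h in wild-type cells (-1.03) and at 24 h in DKO cells (-1.09). On plain TPM its wild-type mean at 144 h was 96.1% of that at 0 h, with no call.

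The main aldolase, *Aldoa*, and triose phosphate isomerase, *Tpi1*, which yield the triose intermediates, fell in every treated group on the spike-in scale. On plain TPM their changes at 144 h were -0.03 (adjusted p = 0.91) and -0.28 (adjusted p = 0.33). *Aldoa* was at 2693 and 2440.1 before treatment, 711 and 771 after 24 h, 1331 and 935 after 72 h and 1331 and 1141 after 144 h in wild-type libraries and at 3352 and 3225 before treatment, 1029.8 and 717 after 24 h and 1592 and 1251 after 72 h in DKO libraries. It fell by 1.79 (adjusted p = 7.1e-04) at 24 h, fell by 1.20 (adjusted p = 0.013) at 72 h and fell by 1.06 (adjusted p = 0.0048) at 144 h in wild-type cells, with treated libraries all below untreated ones. The other *Aldoa* identifier (ENSMUSG00000114515.2), just upstream on the same strand, stayed between 2.07 and 5.94 TPM and passed no test. *Aldoc*, the brain-type aldolase, was low, at 5.45 and 6.91 before treatment, 0.865 and 1.33 after 24 h, 2.21 and 1.47 after 72 h and 5.43 and 4.06 after 144 h and in DKO libraries at 7.59 and 4.98 before treatment, 0.665 and 1.27 after 24 h and 1.99 and 1.65 after 72 h, and fell by 1.78 (adjusted p = 0.0036) at 24 h in wild-type cells. At 144 h its wild-type libraries stood just below those of 0 h, and the change was -0.32 (adjusted p = 0.44).

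*Tpi1* (ENSMUSG00000023456.15, chr6:124810586-124814296, minus strand, mm10) encodes triose phosphate isomerase. It stood at 432 and 504 before treatment, 45.1 and 66.6 after 24 h, 106 and 66.4 after 72 h and 196 and 181 after 144 h in wild-type libraries and at 525 and 379.8 before treatment, 56.5 and 24.3 after 24 h and 85.2 and 74.1 after 72 h in DKO libraries. At 24 h the wild-type mean was 8.37-fold below 0 h and the DKO mean 11.2-fold. It fell by 3.06 (adjusted p = 2.9e-05) in wild-type cells and fell by 3.55 (adjusted p = 4.4e-06) in DKO cells at 24 h, and it fell by 1.30 (adjusted p = 0.0051) at 144 h in wild-type cells, with an SE of 0.34. With 1 library left out, the change at 24 h ran from -3.34 to -2.79 in wild-type cells and from -4.15 to -2.96 in DKO cells.

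In the lower pathway *Gapdh* was a partial exception. *Gapdh* encodes the dehydrogenase that reduces NAD and stood at 6580.4 and 6506 before treatment, 3289 and 3971 after 24 h, 4721 and 3550.4 after 72 h and 3419 and 3161 after 144 h in wild-type libraries and at 9143 and 8787 before treatment, 4292 and 2988 after 24 h and 5586 and 4674 after 72 h in DKO libraries. All treated libraries lay below the untreated ones, yet at 24 h its change in wild-type cells was -0.86 (adjusted p = 0.061), and it fell by 0.99 (adjusted p = 0.0086) at 144 h and fell by 1.32 (adjusted p = 0.0041) in DKO cells at 24 h. On plain TPM its change at 144 h was 0.04 (adjusted p = 0.88). With the replicate block it was called at 24 h in wild-type cells as well (adjusted p = 0.015). *Pgk1*, which makes the first ATP of the pathway, stood at 811 and 895 before treatment, 198 and 249 after 24 h, 329 and 219 after 72 h and 464 and 399 after 144 h in wild-type libraries and at 1048 and 789 before treatment, 281 and 164 after 24 h and 375 and 289.8 after 72 h in DKO libraries. It fell by 1.94 (adjusted p = 7.1e-04) at 24 h and fell by 0.98 (adjusted p = 0.011) at 144 h, where its change on plain TPM was 0.04 (adjusted p = 0.84). *Pgam1*, phosphoglycerate mutase, was at 1009.7 and 1127 before treatment, 259 and 336 after 24 h, 411 and 326 after 72 h and 372 and 333 after 144 h, and in DKO libraries at 1466 and 1247 before treatment, 477 and 254 after 24 h and 681 and 467 after 72 h. It fell by 1.85 (adjusted p = 9.7e-04) at 24 h and fell by 1.60 (adjusted p = 6.0e-04) at 144 h in wild-type cells. On plain TPM these changes were -1.48 (adjusted p = 1.7e-05) and -0.57 (adjusted p = 0.002).

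Of the enolases, *Eno1* is the general form and stood at 2823 and 2872 before treatment, 812 and 920.4 after 24 h, 1465 and 1064 after 72 h and 1434 and 1233 after 144 h in wild-type libraries and at 3632 and 3116 before treatment, 944 and 675 after 24 h and 1309 and 929 after 72 h in DKO libraries. It fell by 1.72 (adjusted p = 9.7e-04) at 24 h and fell by 1.10 (adjusted p = 0.0041) at 144 h in wild-type cells and fell by 1.61 (adjusted p = 0.0027) at 72 h in DKO cells. On plain TPM the wild-type mean of *Eno1* at 144 h was 95.4% of that at 0 h, the libraries overlapped and no change was called. *Eno3*, the muscle form, stood at 71.4 and 61.9 before treatment, 24.1 and 19.3 after 24 h, 40.5 and 28.2 after 72 h and 15 and 12.8 after 144 h, and in DKO libraries at 100.2 and 92.1 before treatment, 37.3 and 32.9 after 24 h and 52.6 and 57.5 after 72 h. It was lowest at 144 h, where it fell by 2.18 (adjusted p = 3.2e-05), and it was the member with the largest fall at that time. *Eno2*, the neuronal form, was at 1.34 to 7.18 TPM and passed no test. *Pkm*, pyruvate kinase, closes the pathway and stood at 3456 and 3411 before treatment, 841 and 1007 after 24 h, 2152 and 1488 after 72 h and 2046 and 1749.9 after 144 h in wild-type libraries. In DKO libraries it stood at 4572 and 3994 before treatment, 1381 and 829 after 24 h and 2451 and 1933 after 72 h. It fell by 1.90 (adjusted p = 7.6e-04) at 24 h and fell by 0.86 (adjusted p = 0.021) at 144 h, where its change on plain TPM was 0.17 (adjusted p = 0.37). Processed pseudogenes of *Gapdh*, *Eno1*, *Pgk1*, *Pgam1*, *Aldoa* and *Ldha* are numerous in mouse, so how shared reads were divided is a limit for these levels. For *Pgk1*, *Pgam1*, *Eno1*, *Eno3* and *Pkm* every treated library lay below every untreated library of its genotype. Several members overlap a gene on the other strand, among them *Hk1*, *Pfkm*, *Pfkp*, *Tpi1*, *Gapdh* and *Ankrd37*, and the StringTie options given in the study's methods name no library strand, so reads of such partners may not have been told apart.

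Lactate production held the member with the largest fall at 24 h in wild-type cells. *Ldha* (ENSMUSG00000063229.15, chr7:46841475-46855627, plus strand, mm10) encodes the subunit of lactate dehydrogenase that favours lactate production. Its level in wild-type libraries was 2092 and 2464 before treatment, 161 and 193 after 24 h, 496 and 304 after 72 h and 771 and 629 after 144 h, and in DKO libraries 3594 and 2614 before treatment, 403 and 205 after 24 h and 611 and 580.2 after 72 h. The 24 h mean was 12.9-fold below 0 h in wild-type cells and 10.2-fold below in DKO cells, and every treated library lay below every untreated one of its genotype. *Ldha* fell by 3.68 (adjusted p = 3.6e-06) at 24 h, fell by 2.54 (adjusted p = 1.7e-04) at 72 h and fell by 1.70 (adjusted p = 5.6e-04) at 144 h in wild-type cells, with an SE of 0.32, and in DKO cells it fell by 3.41 (adjusted p = 2.7e-06) at 24 h and fell by 2.36 (adjusted p = 3.4e-04) at 72 h. *Ldhb* encodes the other subunit, which favours pyruvate. It stood at 328 and 163 before treatment, 360.2 and 333 after 24 h, 359 and 299 after 72 h and 379.8 and 331 after 144 h, and in DKO libraries at 247 and 315 before treatment, 301 and 215 after 24 h and 395 and 258 after 72 h, and no change was called on this scale without the block. With it *Ldhb* rose by 0.61 (adjusted p = 0.038) at 144 h. On plain TPM *Ldhb* rose by 0.95 (adjusted p = 0.032) at 24 h, by 0.92 (adjusted p = 0.041) at 72 h and by 1.63 (adjusted p = 0.0029) at 144 h in wild-type cells, while in DKO cells its changes were 0.44 (adjusted p = 0.31) and 0.50 (adjusted p = 0.23).

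Of the lactate exporters, *Slc16a3* encodes MCT4, typical of glycolytic cells. Its level was 49.0 and 50.0 before treatment, 4.02 and 5.04 after 24 h, 36.7 and 24.2 after 72 h and 45.4 and 43.2 after 144 h in wild-type libraries and 57.0 and 51.1 before treatment, 6.66 and 5.58 after 24 h and 30.2 and 25.6 after 72 h in DKO libraries. It fell by 3.20 (adjusted p = 7.7e-06) at 24 h in wild-type cells, and the change from 0 h was -0.71 (adjusted p = 0.14) at 72 h and -0.16 (adjusted p = 0.67) at 144 h. *Slc16a1*, which encodes the widespread transporter MCT1, stood at 126 and 136 before treatment, 35.9 and 38.3 after 24 h, 51.2 and 47.7 after 72 h and 43.1 and 41.3 after 144 h, and in DKO libraries at 182 and 159 before treatment, 59.9 and 34.6 after 24 h and 90.4 and 62.5 after 72 h. It fell by 1.79 (adjusted p = 9.7e-04) at 24 h and was still lower at 144 h, where it fell by 1.61 (adjusted p = 4.6e-04). *Pdk1* encodes a kinase that inactivates pyruvate dehydrogenase. It stood at 113 and 91.7 before treatment, 90.7 and 92.9 after 24 h, 182 and 136 after 72 h and 135 and 126 after 144 h in wild-type libraries and at 191 and 157 before treatment, 216 and 124 after 24 h and 319.7 and 219 after 72 h in DKO libraries, with no call on the spike-in scale. Its libraries at 72 h lay above the untreated ones in both genotypes. With the replicate block it rose by 0.62 (adjusted p = 0.032) at 72 h in wild-type cells and rose by 0.61 (adjusted p = 0.047) in DKO cells. On plain TPM it rose by 1.04 (adjusted p = 6.3e-04) at 72 h and rose by 1.36 (adjusted p = 1.6e-04) at 144 h.

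**Figure D2:**
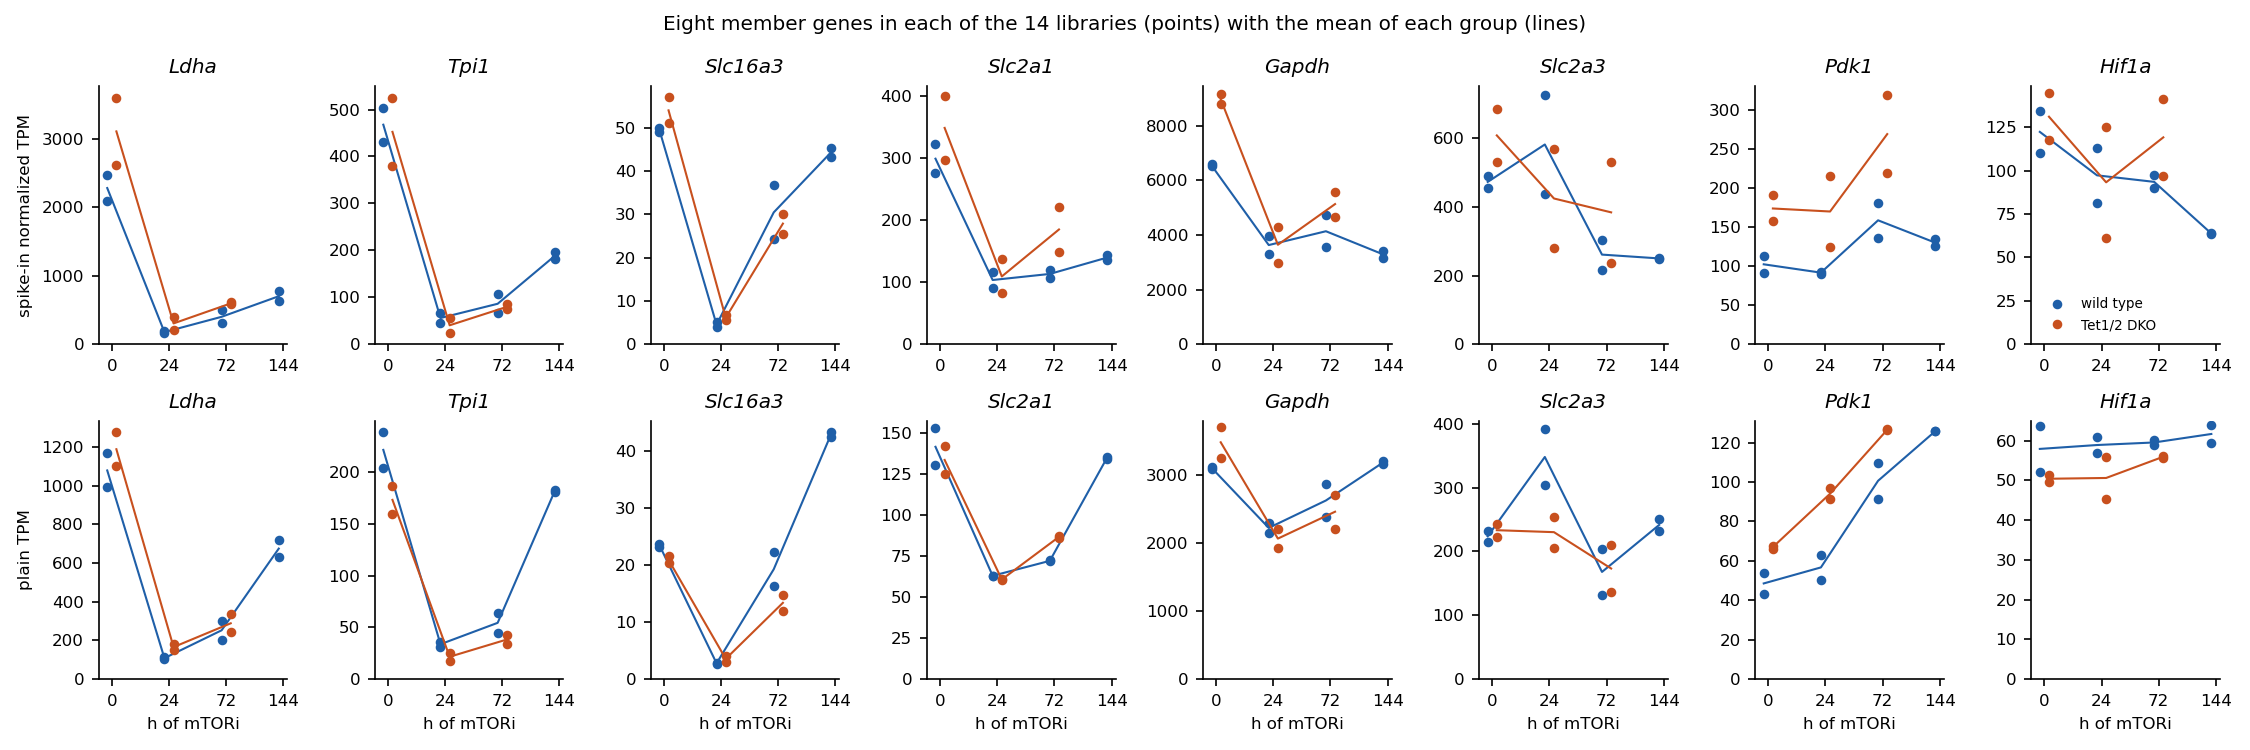
Spike-in normalized TPM (top) and plain TPM (bottom) of 8 genes against hours of mTORi, spaced evenly; each point is 1 library (blue, wild type; orange, *Tet1/2* DKO) and lines join group means. *Ldha*, *Tpi1* and *Slc16a3* were lowest at 24 h in both genotypes, and on plain TPM *Slc16a3* and *Pdk1* at 144 h lay above all untreated wild-type libraries while *Hif1a* lay between 45.3 and 64.0 in every library.

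The hypoxia genes outside the pathway did not move as 1 group. *Hif1a* encodes the oxygen-regulated HIF subunit and stood at 110.0 and 135 before treatment, 81.4 and 113 after 24 h, 97.2 and 89.7 after 72 h and 63.5 and 64.0 after 144 h in wild-type libraries and at 144 and 117 before treatment, 125 and 61.4 after 24 h and 141 and 97.0 after 72 h in DKO libraries. It fell by 0.92 (adjusted p = 0.022) at 144 h, beside a median of -0.83 for all genes, and no other change from 0 h was called without the block. With it the change of -0.57 in DKO cells at 24 h was called (adjusted p = 0.047). On plain TPM the largest change of *Hif1a* from 0 h was 0.15 (adjusted p = 0.37), with an SE of 0.12. *Egln3*, a prolyl hydroxylase and itself a HIF target, stood at 11.7 and 13.9 before treatment, 4.15 and 3.75 after 24 h, 6.16 and 4.07 after 72 h and 9.28 and 9.15 after 144 h, and in DKO libraries at 21.3 and 11.9 before treatment, 6.51 and 3.6 after 24 h and 6.84 and 4.94 after 72 h. It fell by 1.48 (adjusted p = 0.015) at 24 h, and at 144 h its change was -0.43 (adjusted p = 0.33). *Egln1*, the main prolyl hydroxylase, had changes between -0.81 and -0.46 and no call without the block. With it *Egln1* fell in 4 of the 5 comparisons with 0 h, with adjusted p of 0.011 and 0.013 at 72 and 144 h in wild-type cells and 0.015 and 0.03 at 24 and 72 h in DKO cells. *Pfkfb3* and *Pfkfb4*, which set the level of the phosphofructokinase activator fructose 2,6-bisphosphate, were not called on the spike-in scale without the block. With it *Pfkfb4* fell by 0.67 (adjusted p = 0.029) at 144 h in wild-type cells and *Pfkfb3* fell by 0.72 (adjusted p = 0.021) at 24 h in DKO cells. *Pfkfb3* rose by 0.57 (adjusted p = 0.004) at 144 h on plain TPM.

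*Bnip3*, which encodes a mitophagy receptor, fell at 24 h in both genotypes. Its level was 53.3 and 70.7 before treatment, 19.5 and 29.9 after 24 h, 61.3 and 48.7 after 72 h and 80.2 and 85.0 after 144 h in wild-type libraries and 88.3 and 43.7 before treatment, 33.2 and 13.0 after 24 h and 52.0 and 40.1 after 72 h in DKO libraries. It fell by 1.31 (adjusted p = 0.035) at 24 h in wild-type cells and fell by 1.53 (adjusted p = 0.01) in DKO cells, and at 144 h its wild-type libraries were the highest of that genotype with a change of 0.42 (adjusted p = 0.36). Without DKO 24 h replicate 2 the change in DKO cells was -0.89 (adjusted p = 0.16), without 0 h replicate 1 it was -1.03 (adjusted p = 0.19), and without 24 h replicate 1 it was -2.17. On plain TPM *Bnip3* rose by 1.43 (adjusted p = 0.0027) at 144 h. *Vegfa*, the angiogenic growth factor, stood at 38.9 and 32.9 before treatment, 20.4 and 20.1 after 24 h, 15.9 and 13.6 after 72 h and 12.8 and 12.1 after 144 h, and in DKO libraries at 47.8 and 39.0 before treatment, 15.7 and 11.4 after 24 h and 24.9 and 14 after 72 h. Its change in wild-type cells went from -0.79 (adjusted p = 0.12) at 24 h to -1.45 (adjusted p = 0.0017) at 144 h. *Ankrd37*, an ankyrin repeat gene, fell by 1.51 (adjusted p = 0.011) at 24 h. *Ndrg1*, a stress-induced gene, stayed between 11.2 and 21.0 and was not called on the spike-in scale. On plain TPM it was called with the block, where it rose by 0.48 (adjusted p = 0.034) at 24 h and rose by 0.51 (adjusted p = 0.029) at 144 h in wild-type cells. *Adm*, the vasoactive peptide adrenomedullin, was at 1.99 or less in every library and was not tested.

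*P4ha1* and *P4ha2* encode the catalytic subunits of collagen prolyl 4-hydroxylase. For *P4ha1*, wild-type libraries stood at 32.9 and 30.7 before treatment, 33.2 and 39.9 after 24 h, 19.0 and 15.6 after 72 h and 16.1 and 18.0 after 144 h on the spike-in scale and DKO libraries at 42.1 and 35.9 before treatment, 24.0 and 16.3 after 24 h and 31.0 and 27.5 after 72 h. At 24 h the wild-type libraries lay just above and the DKO libraries below the untreated ones. *P4ha1* fell by 0.94 (adjusted p = 0.031) in DKO cells at 24 h, with 0.19 (adjusted p = 0.72) in wild-type cells, but the difference of the responses was -1.13 (adjusted p = 1), with an SE of 0.42. *P4ha2* was at 11.5 and 27.5 before treatment, 33.9 and 70.6 after 24 h, 11.4 and 17.8 after 72 h and 13.0 and 7.40 after 144 h in wild-type libraries. Its change at 24 h was 1.40 (adjusted p = 0.1), and with the replicate block it rose by 1.40 (adjusted p = 0.0062). The sum of 6 primitive endoderm markers moved with it. In plain TPM that sum was 8.47 and 21.7 in untreated wild-type libraries, 66.1 and 116 after 24 h, 6.02 and 21.3 after 72 h and 5.36 and 6.0 after 144 h. In DKO libraries it was 24.4 and 8.59 untreated, 48.5 and 17.6 after 24 h and 22.1 and 12.0 after 72 h. *P4ha2* was at 33.4 and 10.4 before treatment, 31.5 and 9.47 after 24 h and 27.4 and 20.8 after 72 h in the same DKO libraries. None of these markers was at 0 in a whole group, and their part in the change of *P4ha2* was not tested.

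By 144 h the median of the wild-type members stood beside that of the whole transcriptome. On the spike-in scale 14 of the 35 fell at 72 h (7.6% of all genes) and none rose (0.697%), with a median of -0.85. At 144 h 19 fell, against 50.5% of all genes, and none rose (0.461%), so the share of members called was close to that of all genes. The median was -0.86 for the members and -0.83 for all genes. Of the 19, 14 were not called on plain TPM and 7 of these had changes above 0 there: *Hk2*, *Gapdh*, *Pgk1*, *Pkm*, *Slc2a3*, *Hif1a* and *P4ha1*. On plain TPM 16 fell and 2 rose at 72 h (11.4% and 12.6% of all genes), and at 144 h 5 fell and 7 rose (11.7% and 15.6%). The 5 were *Ldha*, *Pgam1*, *Eno3*, *Slc16a1* and *Vegfa*, and the 7 were *Gpi1*, *Pfkl*, *Ldhb*, *Slc16a3*, *Pdk1*, *Pfkfb3* and *Bnip3*. With the block, 22 fell and *Pdk1* rose at 72 h (25.4% and 2.85% of all genes), the falls adding *Hk1*, *Gapdh*, *Pkm*, *Slc2a3*, *Slc16a3*, *Egln1*, *Ankrd37* and *P4ha1*. At 144 h the block added falls of *Gpi1*, *Pfkl*, *Pfkfb4*, *Egln1* and *Ankrd37*, giving 24 against 66.3% of all genes, and *Ldhb* rose (1.05%). The count of falls at 72 h was 6 without wild-type 0 h replicate 1, 3 without replicate 2, 9 without 72 h replicate 1 and 2 without 72 h replicate 2. At 144 h it was 12 without 0 h replicate 2 and 7 without 144 h replicate 2. The falls called whichever single library was left out were those of *Tpi1* and *Ldha* at 72 h, and of *Pgam1*, *Pfkp*, *Tpi1*, *Vegfa*, *Slc16a1*, *Eno3* and *Ldha* at 144 h. Trophectoderm markers summed to 19.1 and 42.7 plain TPM in untreated wild-type libraries, 17.2 and 47.5 after 24 h, 5.90 and 9.67 after 72 h and 15.8 and 14.4 after 144 h. Most of that sum was *Tfap2c*, with means of 28.6, 30.4, 6.88 and 14.3 in these groups. At most 2 of the 5 markers averaged 1 TPM or more in any of them. The part of these markers in the members' changes was not tested.

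From 72 to 144 h the median of the members hardly moved on the spike-in scale, while that of all genes fell. On the spike-in scale no member was called by limma in either direction (0.00548% of all genes higher and 0.389% lower), although 6 had an unadjusted p under 0.05. The shares in brackets are for the adjusted p, and that of all genes at the unadjusted p is not given. The median change was -0.01 for members and -0.50 for all genes, and 5 of the 35 lay below the median of all genes. On plain TPM 10 members rose in this step, against 0.236% of all genes. They were *Slc2a1*, *Gpi1*, *Pfkl*, *Aldoc*, *Tpi1*, *Pgk1*, *Pgam1*, *Ldha*, *Slc16a3* and *Egln3*, and none fell. *Tpi1* rose by 1.75 (adjusted p = 0.0078), *Ldha* by 1.44 (adjusted p = 0.023) and *Pgk1* by 1.27 (adjusted p = 0.006). With the block on the spike-in scale, *Aldoc*, *Tpi1*, *Pgk1*, *Ldha* and *Egln3* rose (0.121% of all genes) and *Hk2* and *Eno3* fell (18.5%).

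The 18 glycolytic enzyme symbols from hexokinase to lactate dehydrogenase, summed in each library, took 1.02% of plain TPM in untreated wild-type cells, 0.487% after 24 h, 0.673% after 72 h and 1.01% after 144 h, as means of 2 libraries. The sum in the untreated libraries was 10195 and 10249 TPM, and at 144 h it was 10439 and 9825 TPM, so these groups overlapped. In DKO cells the shares were 1.07%, 0.476% and 0.617%. On the spike-in scale the sum was 36.8%, 49.3% and 48.7% of its 0 h mean at 24, 72 and 144 h in wild-type cells, and 30.5% and 46.8% at 24 and 72 h in DKO cells. With *Gapdh*, *Eno1* and *Pgk1* left out together, it was 28.5%, 43.8% and 48.0% at 24, 72 and 144 h in wild-type cells. In DKO cells it was 26.2% and 44.1% at 24 and 72 h.

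Ratios of related genes within a library do not depend on the scaling factor. The pairs were chosen after the values were seen and carry no test. The ratio of *Ldha* to *Ldhb* was 6.37 and 15.1 in untreated wild-type libraries, 0.448 and 0.581 after 24 h, 1.38 and 1.02 after 72 h and 2.03 and 1.90 after 144 h. In DKO libraries it was 14.6 and 8.29, then 1.34 and 0.951, then 1.55 and 2.25. *Ldhb* was thus the more abundant subunit mRNA in both wild-type libraries at 24 h, and at 144 h the ratio was still below both untreated values. The ratio of *Slc16a3* to *Slc16a1* was 0.389 and 0.369 in untreated wild-type cells, 0.112 and 0.132 after 24 h, 0.717 and 0.508 after 72 h and 1.05 and 1.05 after 144 h. In DKO cells it was 0.314 and 0.321 untreated, 0.111 and 0.161 after 24 h and 0.334 and 0.409 after 72 h. It was thus lowest at 24 h in both genotypes and above the untreated values afterwards, by little in DKO cells. The ratio of *Slc2a1* to *Slc2a3* was 0.605 and 0.660 in untreated wild-type cells, 0.208 and 0.161 after 24 h, 0.552 and 0.351 after 72 h and 0.579 and 0.540 after 144 h. In DKO cells it was 0.584 and 0.561, then 0.240 and 0.293, then 0.416 and 0.631. That of *Hk2* to *Hk1* was 7.95 and 12.0 in untreated wild-type cells, 6.24 and 5.98 after 24 h, 14.2 and 11.4 after 72 h and 9.86 and 10.1 after 144 h. In DKO cells it was 6.90 and 6.03 untreated, 5.31 and 6.85 after 24 h, where the groups overlapped, and 7.53 and 9.57 after 72 h.

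**Figure D3:**
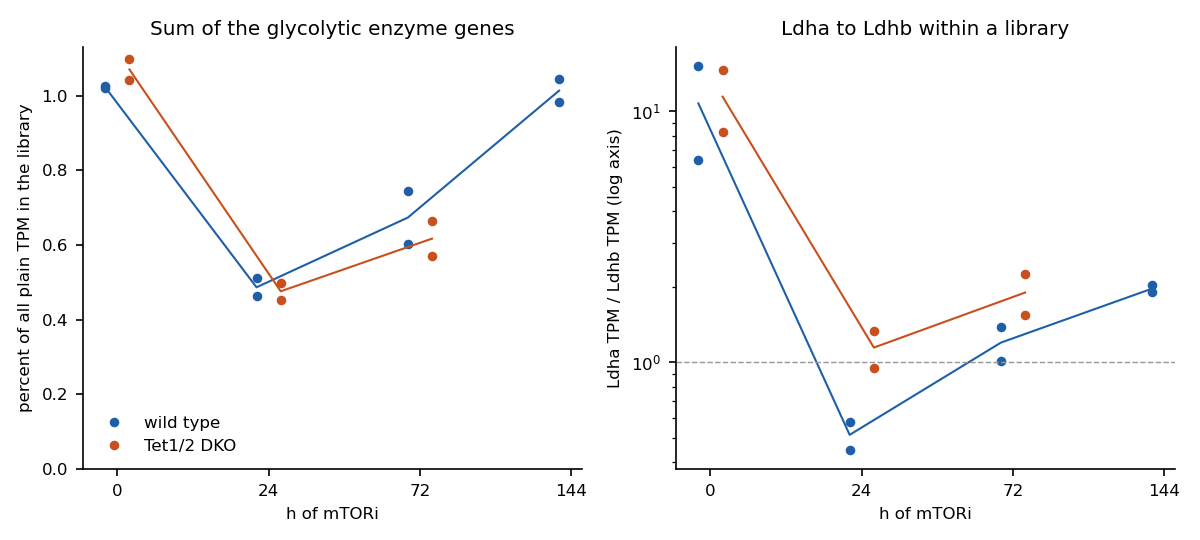
Left, summed plain TPM of the glycolytic enzyme genes as a percent of all TPM in the library; right, *Ldha* TPM divided by *Ldhb* TPM in the same library on a log axis, with a dashed line at equal levels; points are libraries (blue, wild type; orange, *Tet1/2* DKO) and lines join group means. The wild-type sum at 144 h overlapped that of 0 h, while the ratio at 144 h was near 2 and below both untreated libraries.

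In *Tet1/2* DKO cells most tested members fell at 24 h as well. On the spike-in scale 23 of the 35 members fell (18.7% of all genes) and none rose (0.505%), with a median of -1.43 beside -0.49 for all genes. At 72 h 10 fell (2.95%) and none rose (0.713%), with medians of -0.79 and -0.12. The 10 were *Ldha*, *Tpi1*, *Eno1*, *Pfkp*, *Pgk1*, *Aldoc*, *Pgam1*, *Aldoa*, *Slc16a1* and *Vegfa*. On plain TPM 20 fell and *Pdk1* rose at 24 h (13.3% and 11.6% of all genes), and 17 fell and *Pdk1* rose at 72 h (9.06% and 17.2%). With the block *Hk1*, *Pfkfb3*, *Hif1a* and *Egln1* fell at 24 h in addition, giving 27 against 38.1% of all genes, and at 72 h 20 fell and *Pdk1* rose (13.2% and 5.34%), the falls adding *Pfkl*, *Gapdh*, *Eno3*, *Pkm*, *Slc2a1*, *Slc2a3*, *Slc16a3*, *Egln1*, *Egln3* and *Ankrd37*. The count of 10 at 72 h became 4 without DKO 0 h replicate 1, 5 without 0 h replicate 2, 2 without 72 h replicate 2, and 16 without either 24 h library. The falls called in every such fit were those of *Tpi1* and *Ldha* at 72 h, and at 24 h all but those of *Hk2*, *P4ha1*, *Pfkm*, *Egln3*, *Gpi1*, *Gapdh* and *Bnip3*. From 0 to 72 h in DKO libraries the trophectoderm sum went from 40.1 and 17.9 to 11.5 and 8.10 plain TPM. That of mesendoderm markers went from 3.71 and 4.31 to 6.43 and 7.10, and that of ES cell markers from 2288 and 2465 to 2090 and 2016. The part of these cells in the DKO changes was not tested. DKO cells at 144 h were not analysed here.

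By limma, no member was called different between genotypes on the spike-in scale without a block, whether at 0 h (0.0439% of all genes in either direction), at 24 h (0.0439%) or at 72 h (0.329%). At an unadjusted p under 0.05 there were 4, 5 and 8 members. The shares in brackets are for the adjusted p, so they cannot be set beside these counts. With a block that joined unlike replicate numbers of the genotypes, members were called at 24 h and at 72 h, as counted at the end. The difference of the responses, DKO minus wild type, ran from -1.50 (*P4ha2*) to 0.27 (*Ldha*) at 24 h and from -0.42 (*Eno1*) to 0.64 (*P4ha2*) at 72 h, with no member called at 24 h (0.00548% of all genes) or at 72 h (0%). At an unadjusted p under 0.05 there was 1 member, *P4ha1*, at 24 h and none at 72 h, again without a share of all genes. On plain TPM no member was called at 0 h (0.598% of all genes). At 24 h, with 1.37% of all genes called, *Pdk1* was higher in DKO cells, at 96.8 and 91.4 against 63.2 and 50.1 plain TPM, with a log2 difference of 0.73 (adjusted p = 0.028). *P4ha1* was lower, at 10.7 and 12.0 against 23.1 and 21.5, with a log2 difference of -0.92 (adjusted p = 0.015). At 72 h, with 4.01% of all genes called, *Eno1* was lower, at 517 and 538 against 887 and 714, with a log2 difference of -0.59 (adjusted p = 0.034). *Pdk1* was already higher in both untreated DKO libraries than in both untreated wild-type libraries, with a log2 difference of 0.46 (adjusted p = 0.15).

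**Figure D4:**
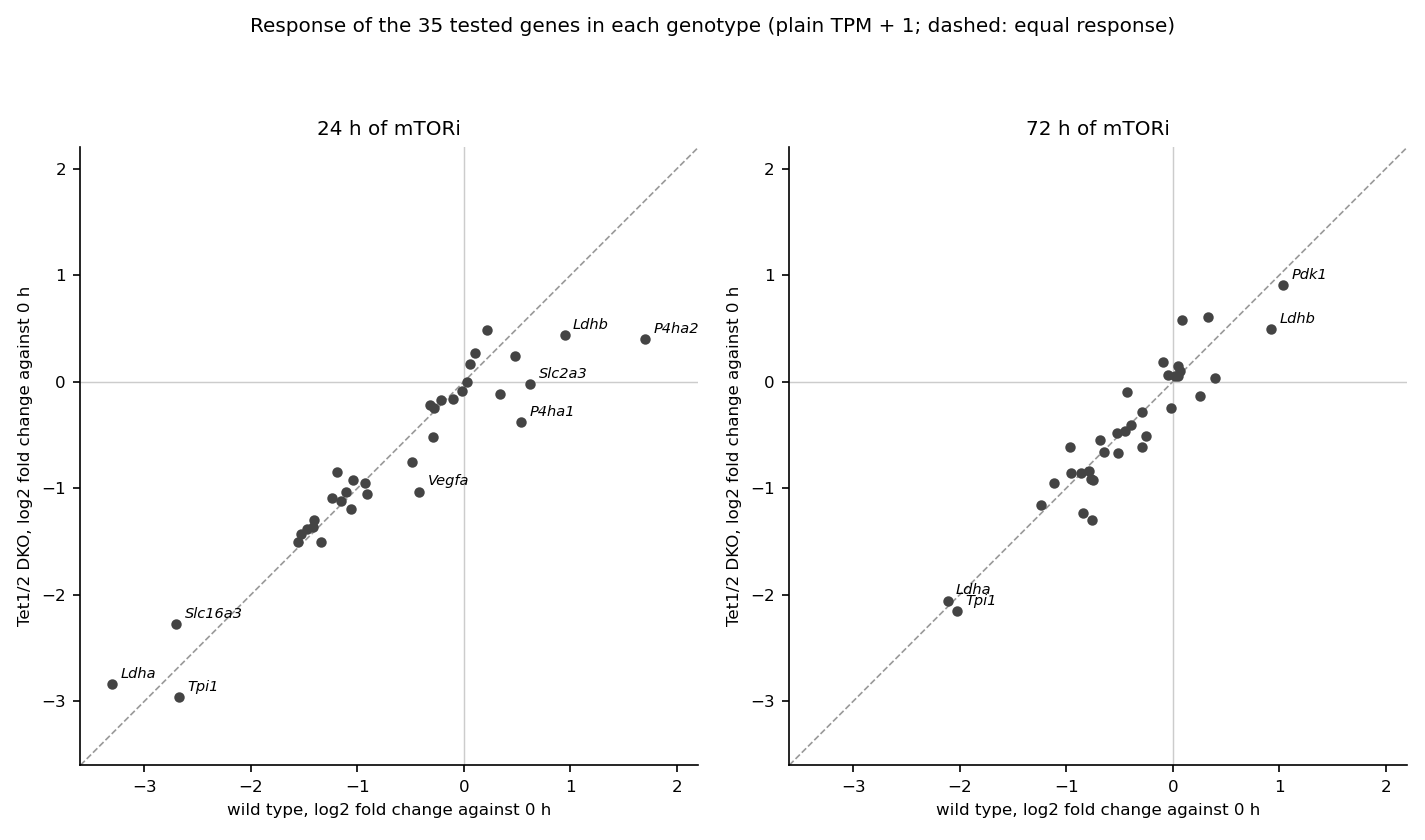
Log2 fold change of plain TPM + 1 against 0 h in *Tet1/2* DKO cells (vertical axis) and in wild-type cells (horizontal axis) at 24 h (left) and 72 h (right); each point is 1 of the 35 tested genes, the dashed line marks equal response, and the genotypes share no libraries. *Ldha*, *Tpi1* and *Slc16a3* lie at the lower left at 24 h, and *P4ha2*, *Slc2a3* and *P4ha1* lie below the line, none with a difference that passed the test.

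A wider list of 89 other symbols of the pathway, for neighbouring reactions, pyruvate entry into mitochondria, the pentose phosphate pathway, the HIF system and further HIF targets, gave 76 tested genes. On the spike-in scale 20 of these fell and 1 rose at 24 h in wild-type cells, 22 fell at 72 h and 51 fell at 144 h, where 8.73%, 7.6% and 50.5% of all genes fell, and the medians were -0.52 at 24 h and -1.06 at 144 h. In DKO cells 32 fell at 24 h and 7 at 72 h, beside 18.7% and 2.95% of all genes. On plain TPM, in wild-type cells, 23 fell and 18 rose by 24 h, 27 fell and 11 rose by 72 h, and 22 fell and 14 rose by 144 h. The shares of all genes were 14.1% and 15.8%, 11.4% and 12.6%, and 11.7% and 15.6%. In DKO cells 28 fell and 9 rose by 24 h, and 23 fell and 8 rose by 72 h, beside 13.3% and 11.6%, and 9.06% and 17.2%, of all genes. By sublist on the spike-in scale, the falls at 24 h in wild-type cells were 3 of 18 neighbouring reactions, 1 of 13 genes of pyruvate entry, 3 of 7 of the pentose phosphate pathway, 6 of 13 of the HIF system and 7 of 25 further HIF targets, and at 144 h they were 10, 9, 6, 10 and 16, when 50.5% of all genes fell. The gene that rose was *Hkdc1*, a hexokinase-like gene, by 2.78 (adjusted p = 0.0011). The largest falls at 144 h were those of *Fbp2*, a fructose bisphosphatase of the reverse pathway, *Hmox1*, heme oxygenase, and *Ddit4*, an inhibitor of mTORC1. *Fbp2* went from 25.4 and 29.6 to 1.75 and 0.989 spike-in normalized TPM and fell by 3.6 (adjusted p = 1.3e-06). *Hmox1* went from 178 and 317 to 21.4 and 18.6, and *Ddit4* from 37.8 and 88.1 to 9.64 and 9.10. The 72 h libraries of *Ddit4*, at 6.67 and 4.93, were lower than those of 144 h. At 72 h the DKO cells held more *Fbp2* than the wild type, by 1.58 (adjusted p = 0.043), the only one of the 76 called between genotypes on the spike-in scale. On plain TPM *G6pc3* was called at 0 h and *Pdk3*, *Dlat*, *Pfkfb1* and *Fbp2* at 72 h, all higher in DKO cells, and *Arnt* at 24 h, lower in DKO cells.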

How the data were processed

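Total RNA of 14 libraries (KAPA HyperPrep with RiboErase, ERCC RNA added) was measured. The deposited values are TPM, which the authors made with cutadapt, STAR and StringTie on mm10, per the labels and the study's methods. They sum to the same total in each library, hold no ERCC entries, and were not yet spike-in normalized. Identifiers with more than 1 entry, 10 of 54446, were summed. Each library's spike-in factor was recovered as its ratio to the study's spike-in normalized table. Over 482 to 539 genes per library, all ratios lay within 1% of the factor. Depth is unknown, so no counting interval is given.

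The 18232 genes whose spike-in normalized TPM averaged 1 or more were fitted as log2(TPM + 1) with limma 3.58.1 (R 4.3.3), with 1 mean per group, all 14 libraries sharing the estimate of spread, trended empirical Bayes and Benjamini-Hochberg adjustment over all genes in each of 11 comparisons. The script was tested on simulated data. The study states that time points of 1 replicate were processed in parallel, without saying whether this spans genotypes. Deviations of same-numbered libraries correlated at 0.24 to 0.40 in 3 of the 6 wild-type pairs of groups, at 0.18, 0.12 and 0.062 in the others, and at 0.22 to 0.34 in the 3 DKO pairs, and were negative between genotypes at the same time, so the number was taken to pair libraries only within a genotype. Alternatives were plain TPM, centring on the library median, another pseudocount, other filters, no trend, replicate blocks and leaving out each library.

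The members, lists and tests were chosen with earlier results of these data known. Members were chosen by name, and all could be named. Values in every library are given for 14 of them fixed by name and for each member called in 3 or more of the 6 comparisons of mTORi time or between genotypes. Of the wider list, up to 3 genes per direction with the largest called change at 144 h are named, and Hkdc1 was named after its values were seen. Promoters came from RefSeq (GRCm38.p6).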

Additional observations from a re-analysis of the deposited data

How the results depend on the processing

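Of 83 changes called for single members on the spike-in scale, all 83 kept direction and call when the replicate number was a block inside each genotype, and also with crossed numbers, 82 with a block across all libraries, 79 with a pseudocount of 0.1, 79 with a minimum of 5 TPM, where the other 4 were not tested, 76 without the trend and 64 with no filter. On plain TPM 65 did, 11 lost the call and 7 reversed, all at 144 h in wild-type cells: Hk2 (0.0082), Slc2a3 (0.11), P4ha1 (0.12), Hif1a (0.095), Pkm (0.17), Gapdh (0.036) and Pgk1 (0.042), with the same values under plain TPM with the block. Centring kept 67. The block ended none of these calls.

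The share of all genes called moved with the setting as well. For falls at 144 h in wild-type cells it was 50.5% on the main scale, 11.7% on plain TPM and 66.3% with the block. Here and below the counts have no such share beside them, so they do not set members apart from all genes. Counts of members called in wild-type cells moved as follows. At 24 h the count called higher was 3 on plain TPM, 5 on plain TPM with the block, and 1 with centring, the block or crossed numbers. At 72 h it was 2 on plain TPM, 2 with the block added, and 1 with centring or the block, and the count called lower was 9 with no filter and 22 with the block. At 144 h the count called higher was 7 on plain TPM, 8 with the block added, 6 with centring, and 1 with the block or crossed numbers, and the count called lower was 5 on plain TPM, 5 with the block added and 6 with centring. From 72 to 144 h the count called higher was 10 on plain TPM, 16 with the block added, 5 with centring, 5 with the block and 3 with crossed numbers, and the count called lower was 1 with a pseudocount of 0.1, with a minimum of 5 TPM or with crossed numbers, and 2 with the block.

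In DKO cells the count called higher at 24 h was 1 on plain TPM with or without the block, and at 72 h it was 1 on plain TPM, with the block, with both or with centring. The count called lower at 72 h was 17 on plain TPM, 19 with the block added, 19 with centring, 20 with the block, 18 with crossed numbers and 4 with no filter. Between genotypes at 24 h the count higher was 1 on plain TPM and the count lower was 1 on plain TPM, with centring or with crossed numbers. At 72 h the count higher was 2 with crossed numbers and the count lower was 1 on plain TPM. The cause of these moves was not tested. The summed enzymes on plain TPM were 47.6%, 65.9% and 99.1% of 0 h at 24, 72 and 144 h in wild-type cells and 44.5% and 57.7% at 24 and 72 h in DKO cells, and 28.5% at 24 h in wild-type cells on the spike-in scale without Gapdh, Eno1 and Pgk1.

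Leaving out 1 library gave 10 to 21, 2 to 17 and 7 to 20 members called lower at 24, 72 and 144 h in wild-type cells, 16 to 28 and 2 to 16 at 24 and 72 h in DKO cells, and 0 to 1 called higher in wild-type cells at 24 and 144 h, in either direction from 72 to 144 h and higher in DKO at 72 h. Where a group was left with 1 library, that library was assumed to vary like the other groups. Medians ranged from -0.99 to -0.80, -0.99 to -0.70 and -0.92 to -0.86 in wild-type cells, from -0.14 to 0.11 between 72 and 144 h, and from -1.58 to -1.06 and -1.05 to -0.61 in DKO cells. The enzyme sum ranged from 33.9% to 39.8%, 41.6% to 57.0% and 45.5% to 51.8% of 0 h in wild-type cells and from 24.4% to 36.6% and 41.4% to 52.1% in DKO cells. The read depth is unknown, so no limit from depth is given.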
